A study of Mus musculus with 3 samples.

Results

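The genes described are 42 genes of the cell division cycle: 18 that act in S phase, 21 that act in G2 and mitosis (G2/M), and the 3 D-type cyclins of G1. They were picked by symbol from the 28692 gene features of the count tables, and each had UMIs in all 3 mice. A UMI (unique molecular identifier) tags 1 captured RNA molecule. The single-cell RNA sequencing (scRNA-Seq) libraries came from whole lungs of 3 wild-type C57BL/6 mice (mouse 2, mouse 3, and mouse 4) at P14, which had breathed room air (RA) since postnatal day 1. The mice formed 1 group with no treated or mutant animals, so all comparisons were between cell types within the same mice. Cells were clustered without these genes, and a cluster was called "X-like" from its marker genes. Values of the mice are given in the order 2, 3, and 4.

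A dividing cell first copies its DNA and then separates the copies. D-type cyclins activate CDK4 and CDK6 early in G1 in response to growth signals, and they are also made by cells that are not cycling. This releases E2F transcription factors, which switch on the S genes for origin licensing, the replicative helicase, and nucleotide supply. The G2/M genes for the mitotic kinases, the spindle, and the kinetochores are switched on later by B-Myb and FoxM1 together with the MuvB complex, which binds a promoter element called the CHR (cell cycle genes homology region). At P14 the mouse lung is still forming alveoli and capillaries.

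Promoters are shown first because they are where the 2 sets differ in sequence. The RefSeq table for GRCm38.p6 held promoters, 250 bases before to 50 after the gene start, for 16 S genes, 18 G2/M genes, and 1 D-type cyclin. They were searched on both strands for the CHR (TTTGAA or TTCGAA), for CCAAT, and for the E2F letters TTTCCCGC, TTTGGCGC, TTTCGCGC, and TTTGCCGC. A CHR was found in 13 of 18 G2/M promoters (72.2%) and in 3 of 16 S promoters (18.8%), beside 19.4% of all 27025 promoters in the table. CCAAT was found in 15 of the 18 G2/M promoters, in 11 of the 16 S promoters, and in 37.9% of all. The E2F letters were found in 6 of 16 S promoters (37.5%), in 1 of 18 G2/M promoters, and in 2.32% of all. A promoter with both a CHR and CCAAT was seen for 13 of 18 G2/M genes, for 3 of 16 S genes, and for 7.70% of all genes. The D-type cyclin promoter held none of these letters. Such matches describe letters and not bound sites. For each kind, 2 promoters are printed 5′ to 3′, the one with the most matches and 1 of those tied at 2 matches, with the CHR in capitals for the G2/M genes Top2a and Mki67 and the E2F letters in capitals for the S genes Mcm3 and Mcm6, where overlapping matches run together in Mcm6.
Top2a (chr11:99024140-99024439, minus strand): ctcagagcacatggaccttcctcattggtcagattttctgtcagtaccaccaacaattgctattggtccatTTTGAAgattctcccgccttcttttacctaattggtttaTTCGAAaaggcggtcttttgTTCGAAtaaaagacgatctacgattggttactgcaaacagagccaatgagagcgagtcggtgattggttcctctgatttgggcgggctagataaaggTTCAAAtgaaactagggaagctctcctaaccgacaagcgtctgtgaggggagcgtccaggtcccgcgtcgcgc
Mki67 (chr7:135716330-135716629, minus strand): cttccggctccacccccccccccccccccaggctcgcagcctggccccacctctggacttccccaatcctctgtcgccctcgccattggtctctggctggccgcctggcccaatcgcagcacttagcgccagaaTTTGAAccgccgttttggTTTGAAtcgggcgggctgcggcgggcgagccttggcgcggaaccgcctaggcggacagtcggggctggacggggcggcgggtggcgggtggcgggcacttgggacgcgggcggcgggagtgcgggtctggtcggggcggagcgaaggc
Mcm3 (chr1:20820263-20820562, minus strand): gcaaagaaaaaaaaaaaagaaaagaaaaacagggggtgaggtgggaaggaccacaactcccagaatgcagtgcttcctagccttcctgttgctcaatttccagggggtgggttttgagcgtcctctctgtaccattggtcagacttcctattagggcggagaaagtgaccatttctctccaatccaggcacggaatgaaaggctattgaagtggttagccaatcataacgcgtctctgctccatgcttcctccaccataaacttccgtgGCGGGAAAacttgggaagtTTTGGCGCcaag
Mcm6 (chr1:128359656-128359955, minus strand): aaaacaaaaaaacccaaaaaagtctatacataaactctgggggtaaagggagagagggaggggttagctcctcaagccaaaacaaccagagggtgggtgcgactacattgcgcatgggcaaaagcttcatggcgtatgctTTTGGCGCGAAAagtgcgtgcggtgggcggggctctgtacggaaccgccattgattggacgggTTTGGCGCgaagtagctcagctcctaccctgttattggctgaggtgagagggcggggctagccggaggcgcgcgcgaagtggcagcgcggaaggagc

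Top2a encodes the topoisomerase that untangles replicated chromosomes, and its window held 4 CHR and 6 CCAAT matches. Mki67 encodes the coat protein of mitotic chromosomes (Ki-67), and its window held 2 CHR and 3 CCAAT matches. Mcm3 and Mcm6 encode subunits of the replicative helicase, and their windows held 2 and 3 E2F matches.

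After filtering, 7642 of 9644 deposited cells were kept, with a median of 6033.5 UMIs, and 6803 of them fell in 22 named cell types of 4 classes: endothelial cell (EC)-like (990 cells, median 7666.5 UMIs), epithelial-like (1288, 16283), stromal-like (1541, 10528), and immune-like (2984, 3850). The libraries of the 3 mice held between 20804836 and 23442355 UMIs in kept cells. Library 3 stood apart, with a UMI of the immune gene Ptprc in 54.2% of its cells against 27.5% and 31.6% in the libraries of mice 2 and 4. Between 2 and 5 cell barcodes were shared by any pair of libraries. The 42 genes held 79038 UMIs, of which 24510 were from S genes, 25430 from G2/M genes, and 29098 from D-type cyclins. Levels are given in counts per 1e6 UMIs of the same cells (CPM).

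G2/M transcripts were concentrated in few cells. Of all kept cells, 311 carried at least 5 G2/M UMIs, here called G2/M-positive, and they held 90.4% of all G2/M UMIs but 39.4% of S UMIs, 9.59% of D-type cyclin UMIs, and 9.23% of UMIs of any gene. At least 5 S UMIs were also found in 202 of them (64.95%), and 734 other cells had at least 5 S UMIs alone. By gene, the share of UMIs inside G2/M-positive cells was 99.6% for the spindle gene Hmmr, 97.8% for cyclin B1 (Ccnb1), 96.4% for the kinetochore gene Cenpf, and 89.3% for Mki67. Of the S genes it was 90.7% for Rrm2, the regulated subunit of ribonucleotide reductase, but 22.4% for Slbp, which binds histone mRNA, and it was 6.95% for Ccnd2. The positive cells were deeper, with a median of 13730 UMIs against 6033.5 over all kept cells, and 19 of them scored as doublets. Because a count of G2/M UMIs per group is the product of dividing cells and their RNA content, fewer cycling cells and less RNA per cycling cell cannot be told apart in the summed levels.

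**Figure D1:**
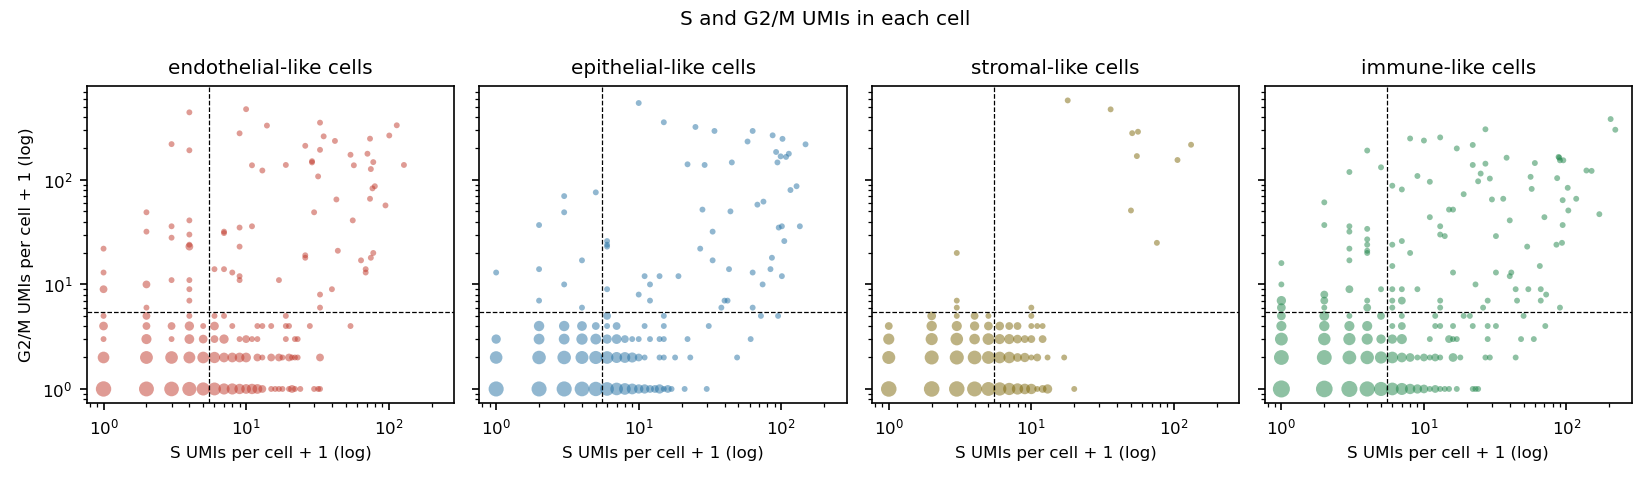
Each dot is a combination of S UMIs (x axis, plus 1, log scale) and G2/M UMIs (y axis, plus 1, log scale) seen in a cell, in 4 panels for the 4 cell classes, and larger dots stand for more cells. Dashed lines mark 5 UMIs: 75 EC-like, 60 epithelial-like, 13 stromal-like, and 111 immune-like cells lie above the horizontal line.

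By class, 75 of 990 EC-like cells were G2/M-positive (7.58%, exact 95% CI 6.01 to 9.40%), with 8.16, 6.78, and 7.49% in the 3 mice. Immune-like cells had 111 of 2984 (3.72%, 3.07 to 4.46%), with 3.09, 3.44, and 4.66%. Epithelial-like cells had 60 of 1288 (4.66%, 3.57 to 5.96%), with 4.12, 6.96, and 3.72%, so that mouse 3 stood above the other two. Stromal-like cells had 13 of 1541 (0.844%, 0.450 to 1.44%), with 0.923, 0.718, and 0.861%, the lowest class in every mouse, and 5 of these 13 cells scored as doublets. Neutrophil-like cells, which no longer divide once in the blood, were used as the background: 2 of 466 (0.429%, 0.052 to 1.54%) at a median of 2133 UMIs per cell. Of these 2, 1 held 103 G2/M UMIs, so this background may include dividing cells. All intervals are Clopper-Pearson and cover counting error only. Since deeper cells pass 5 UMIs more easily, every cell was also thinned to 1000 UMIs, and cells below that depth were left out. The expected share with at least 2 G2/M UMIs was then 5.11% of EC-like, 2.92% of immune-like, 2.38% of epithelial-like, and 0.670% of stromal-like cells (means of 3 mice), against 2.003% of neutrophil-like cells. Much of this background was Kif23, a gene taken up among the immune cells, and without Kif23 the thinned share of neutrophil-like cells was 0.378%, beside 5.06% of EC-like, 2.61% of immune-like, 2.34% of epithelial-like, and 0.666% of stromal-like cells. The cells left out as too shallow numbered, in the same order, 76, 103, 34, 68, and 53.

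The S share moved more with depth. At least 5 S UMIs were found in 22.3 ± 1.04% of EC-like, 21.4 ± 3.07% of epithelial-like, 12.1 ± 2.11% of stromal-like, and 7.38 ± 1.22% of immune-like cells (SD, n = 3), beside 0.154% of neutrophil-like cells. Thinned to 1000 UMIs, these became 6.76%, 3.81%, 2.08%, and 6.21%, and 1.39% for neutrophil-like cells. The immune-like class, lowest at 5 UMIs, was second by this measure, which changed both the depth and the UMI minimum. Thinned to 2000 UMIs it had 15.7% and EC-like cells 15.03%. That depth left out 405 immune-like cells, of which 209 were neutrophil-like, and 124 EC-like cells, so the mix of cells changed as well.

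By the mean of the 3 mice, EC-like cells had the most G2/M RNA of the 4 classes and stromal-like cells the least. Summed G2/M levels were 938, 422, and 697 CPM in EC-like, 435, 583, and 560.4 CPM in immune-like, 232, 396, and 154 CPM in epithelial-like, and 118, 188, and 193 CPM in stromal-like cells. Mouse 2 was high and mouse 3 low among ECs, so EC-like and immune-like cells overlapped, and in mouse 3 immune-like cells were higher. Epithelial-like and stromal-like cells overlapped too. With cell cycle genes kept in the clustering the order of the first 2 means turned, to 170.0 CPM in EC-like and 302 CPM in immune-like cells. Summed S levels were 630.3, 578, and 529.5 CPM in immune-like, 505, 491, and 451 CPM in EC-like, 251, 394, and 239 CPM in epithelial-like, and 209, 208, and 257 CPM in stromal-like cells. The 3 immune-like values lay above all EC-like values, and these above all epithelial-like ones, while epithelial-like and stromal-like cells overlapped. Summed D-type cyclin levels were 583, 657, and 592 CPM in EC-like, 469, 488, and 494 CPM in stromal-like, 337, 409, and 358 CPM in immune-like, and 338, 333, and 372 CPM in epithelial-like cells. Stromal-like cells, lowest for S and G2/M in the means, came second for D-type cyclins.

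Each gene was then tested in each class against the mean of the other 3 classes, over 14278 genes (edgeR quasi-likelihood test on UMIs summed per mouse and class, Benjamini-Hochberg adjusted). A gene is called higher or lower at an adjusted p under 0.05. In EC-like cells 19 of 21 G2/M genes were called higher and none lower, with a median log2 fold change of 1.03. Of all genes 30.2% were called higher and 30.0% lower there, with a median of -0.058. The 2 not called were Bub1 (0.39 ± 0.24), a spindle checkpoint kinase, and Tacc3 (0.32 ± 0.21), a spindle protein. Of 18 S genes 7 were called higher (Mcm2, Mcm3, Mcm5, Mcm6, Rrm1, Tyms, and Tk1) and 1 lower (Dut), with a median of 0.34. The G2/M count rested on mouse 2, since without it 5 were called. Of the 7235 G2/M UMIs of EC-like cells, 5580 lay in 1 sub-cluster of 37 cells, described below with the EC types. The class test was not made without that sub-cluster. With the mouse as a block, Mki67 (adjusted p = 0.0464, blocked 0.052) and Hmmr (0.0452, blocked 0.0584) were no longer called and Rrm2 was (0.0573, blocked 0.0366). When cell cycle genes were kept in the clustering, 4 were called higher and 2 lower. An unnamed cluster of 135 cells led by Casc5 then formed, and 28 of 75 G2/M-positive EC-like, 27 of 60 epithelial-like, 26 of 111 immune-like, and 1 of 13 stromal-like cells were left without a class.

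In stromal-like cells all 18 S genes and all 21 G2/M genes were called lower, with medians of -1.38 and -1.72, where 31.0% of all genes were called lower, 36.4% higher, and the median was -0.005. One of these calls, the spindle gene Tpx2, was lost with the mouse as a block (adjusted p = 0.042, blocked 0.0545), and 5 G2/M calls were left when cell cycle genes were kept in the clustering. In immune-like cells 16 of 18 S genes and 14 of 21 G2/M genes were called higher and none lower, with medians of 0.97 and 0.91, where 37.5% of all genes were called higher, 38.5% lower, and the median was -0.055. The S genes not called were Tyms, thymidylate synthase, and Gins2, a helicase subunit. In epithelial-like cells Tyms was called higher and Mcm3, Mcm4, and Mcm7 lower. Of their G2/M genes Bub1 and Cdc20, the activator of the anaphase-promoting complex, were called higher and Cenpe, Tpx2, and Ccnb2 lower, the last 3 not being called without mouse 4. Their medians were 0.052 for S and -0.26 for G2/M genes, where 34.5% of all genes were called higher, 35.8% lower, and the median was -0.08.

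Scaling by library totals in place of TMM moved the median of all genes by 0.29 on the log2 scale in EC-like, by -0.36 in epithelial-like, and by 0.12 in stromal-like cells. The share of higher calls among all calls moved from 50.1% to 69.5% in EC-like and from 49.0% to 31.7% in epithelial-like cells. G2/M genes called higher in ECs were then 21, and S genes called lower in epithelial-like cells rose from 3 to 9, the same number as for G2/M genes there.

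**Figure D2:**
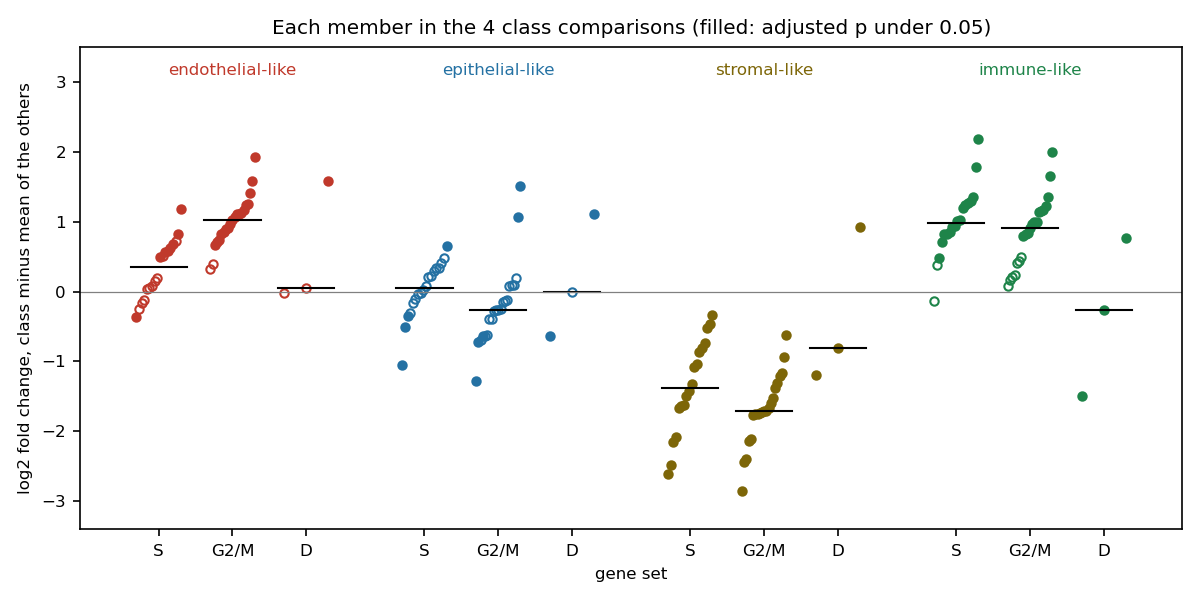
Each point is 1 of the 42 genes, with its log2 fold change of a class minus the mean of the other 3 classes (y axis) for the S, G2/M, and D-type cyclin (D) sets (x axis). Filled points had an adjusted p under 0.05 and black lines are set medians, which for G2/M genes were 1.03 in EC-like, -0.26 in epithelial-like, -1.72 in stromal-like, and 0.91 in immune-like cells.

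Genes of the replicative helicase differed in where they were high. Mcm3 had 51.7, 59.3, and 54.2 CPM in EC-like, 8.71, 19.2, and 10.5 CPM in epithelial-like, 10.5, 13.3, and 13.5 CPM in stromal-like, and 56.9, 51.3, and 42.7 CPM in immune-like cells. All EC-like and immune-like values lay above all others (EC-like log2 fold change 1.19 ± 0.15, adjusted p = 8.93e-06, immune-like log2 fold change 1.35 ± 0.15, adjusted p = 8.97e-07). Mcm7, another subunit of the same ring, had 30.99, 30.8, and 29.7 CPM in EC-like, 16.3, 25.8, and 17.3 CPM in epithelial-like, 22.2, 21.7, and 25.98 CPM in stromal-like, and 49.2, 45.2, and 38.2 CPM in immune-like cells. It was higher in immune-like (log2 fold change 0.93 ± 0.11, adjusted p = 2.81e-06) but did not pass the test in EC-like cells (-0.12 ± 0.13). The other ring subunits Mcm2, Mcm4, Mcm5, and Mcm6, the helicase partners Cdc45 and Gins2, and the loader Cdc6 ranged from 1.32 to 44.9 CPM in EC-like and from 2.51 to 41.3 CPM in immune-like cells. Pcna, the sliding clamp of DNA polymerase, had 46.8, 44.9, and 40.8 CPM in EC-like, 26.8, 40.6, and 24.9 CPM in epithelial-like, 22.3, 21.9, and 23.9 CPM in stromal-like, and 68.01, 60.1, and 54.99 CPM in immune-like cells. It passed the test in immune-like (log2 fold change 1.01 ± 0.11, adjusted p = 1.05e-06) and stromal-like cells (log2 fold change -1.04 ± 0.13, adjusted p = 3.62e-06).

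Genes of nucleotide supply also differed from each other. Rrm1, the large subunit of ribonucleotide reductase, had 45.4, 40.4, and 43.2 CPM in EC-like, 19.4, 30.8, and 16.998 CPM in epithelial-like, 15.2, 18.9, and 25.7 CPM in stromal-like, and 38.99, 37.1, and 31.9 CPM in immune-like cells. It was called higher in EC-like (0.50 ± 0.16) and immune-like cells (0.49 ± 0.16). Dut, which clears dUTP, had 42.95, 39.7, and 36.6 CPM in EC-like, 31.8, 40.1, and 26.97 CPM in epithelial-like, 38.8, 31.1, and 40.5 CPM in stromal-like, and 74.2, 59.7, and 52.5 CPM in immune-like cells. It was higher in immune-like (log2 fold change 0.82 ± 0.12, adjusted p = 2.26e-05) and lower in EC-like cells (log2 fold change -0.37 ± 0.14, adjusted p = 0.0296). By CPM the EC-like values of Dut lay below the immune-like ones only and overlapped the rest. Scaling by library totals in place of TMM moved the median of all genes in EC-like cells by 0.29, close to the size of this difference. Tyms was higher in EC-like (0.56 ± 0.15) and epithelial-like cells (0.66 ± 0.13), while Tk1, thymidine kinase, was higher in EC-like (0.58 ± 0.17) and immune-like cells (1.24 ± 0.15). Slbp had 60.6, 63.8, and 58.4 CPM in EC-like, 44.03, 60.1, and 45.3 CPM in epithelial-like, 38.3, 41.002, and 44.1 CPM in stromal-like, and 87.1, 82.8, and 86.1 CPM in immune-like cells. All immune-like values lay above the rest (log2 fold change 0.82 ± 0.076, adjusted p = 1.33e-07). Uhrf1 and Hells, which act in copying DNA methylation, were called higher in immune-like cells only among the 4 tests (2.18 ± 0.31 and 1.26 ± 0.17), and Uhrf1 was the S gene with the largest immune-like difference.

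Among G2/M genes, Mki67 had 143, 57.5, and 106 CPM in EC-like, 34.4, 63.5, and 19.6 CPM in epithelial-like, 30.2, 47.1, and 46.9 CPM in stromal-like, and 81.2, 104, and 110.5 CPM in immune-like cells. EC-like and immune-like values overlapped, and the EC-like difference only just passed the test (log2 fold change 0.66 ± 0.27, adjusted p = 0.0464). Top2a had 129.9, 84.5, and 99.8 CPM in EC-like, 23.9, 69.98, and 21.5 CPM in epithelial-like, 14.8, 25.2, and 25.98 CPM in stromal-like, and 67.1, 87.1, and 72.6 CPM in immune-like cells. EC-like and immune-like values overlapped and both classes passed the test (1.13 ± 0.26 and 0.84 ± 0.26). Cenpf, a kinetochore protein, had 140.0, 43.7, and 100.01 CPM in EC-like, 22.7, 29.01, and 11.8 CPM in epithelial-like, 5.998, 16.2, and 17.8 CPM in stromal-like, and 16.4, 37.7, and 40.7 CPM in immune-like cells. It had the largest EC-like difference of the 42 genes (log2 fold change 1.93 ± 0.32, adjusted p = 9.73e-05) and did not pass the test in immune-like cells (0.17 ± 0.36). Cenpe, the kinetochore motor, had 42.1, 14.5, and 44.2 CPM in EC-like, 4.41, 9.32, and 3.97 CPM in epithelial-like, 4.33, 5.91, and 8.503 CPM in stromal-like, and 13.8, 31.3, and 24.9 CPM in immune-like cells. Its EC-like value in mouse 3 lay among the immune-like ones, and both classes passed (1.58 ± 0.30 and 1.22 ± 0.31).

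Ube2c, the ubiquitin-conjugating enzyme of the anaphase-promoting complex, had 66.3, 25.2, and 40.5 CPM in EC-like, 23.6, 22.7, and 9.63 CPM in epithelial-like, 7.83, 12.97, and 11.8 CPM in stromal-like, and 36.9, 47.5, and 49.96 CPM in immune-like cells. EC-like and immune-like cells passed the test (0.82 ± 0.27 and 1.17 ± 0.26). Cdk1, the mitotic kinase, had 40.8, 25.2, and 30.3 CPM in EC-like, 13.1, 26.2, and 8.05 CPM in epithelial-like, 4.50, 10.1, and 11.8 CPM in stromal-like, and 16.1, 20.02, and 12.8 CPM in immune-like cells. It was called higher in EC-like cells (log2 fold change 1.03 ± 0.29, adjusted p = 0.00673), where mouse 3 lay within the epithelial-like range. Birc5, survivin of the chromosomal passenger complex, had 35.9, 18.2, and 24.5 CPM in EC-like, 11.4, 19.3, and 6.80 CPM in epithelial-like, 3.499, 4.005, and 5.04 CPM in stromal-like, and 28.7, 27.96, and 25.1 CPM in immune-like cells. It was called higher in EC-like (0.97 ± 0.25) and immune-like cells (1.35 ± 0.23). Kif23, a motor of the cleavage furrow, had 33.98, 11.5, and 34.5 CPM in EC-like, 10.5, 17.9, and 7.59 CPM in epithelial-like, 1.33, 4.005, and 4.25 CPM in stromal-like, and 25.2, 30.6, and 36.2 CPM in immune-like cells. It had the largest stromal-like deficit of the G2/M genes (log2 fold change -2.86 ± 0.39, adjusted p = 1.3e-05), and Aurkb, the kinase of the passenger complex, had the largest immune-like excess of them (log2 fold change 2.00 ± 0.25, adjusted p = 3.83e-06). In immune-like cells Uhrf1 and Aurkb were followed by Mcm5 (1.78 ± 0.21). In stromal-like cells the 3 largest differences were those of Kif23, Uhrf1 (-2.61 ± 0.44), and Mcm5 (-2.48 ± 0.28). In EC-like cells Cenpf and Cenpe were joined by Ccnd1, and in epithelial-like cells Bub1 (1.52 ± 0.20) and Cenpe (-1.28 ± 0.36) by Ccnd1. The remaining G2/M genes, among them the spindle motor Kif11 and the spindle assembly genes Nusap1 and Tacc3, ranged from 4.82 to 35.9 CPM in EC-like, 1.59 to 22.9 CPM in epithelial-like, 0.787 to 12.8 CPM in stromal-like, and 2.76 to 22.1 CPM in immune-like cells.

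**Figure D3:**
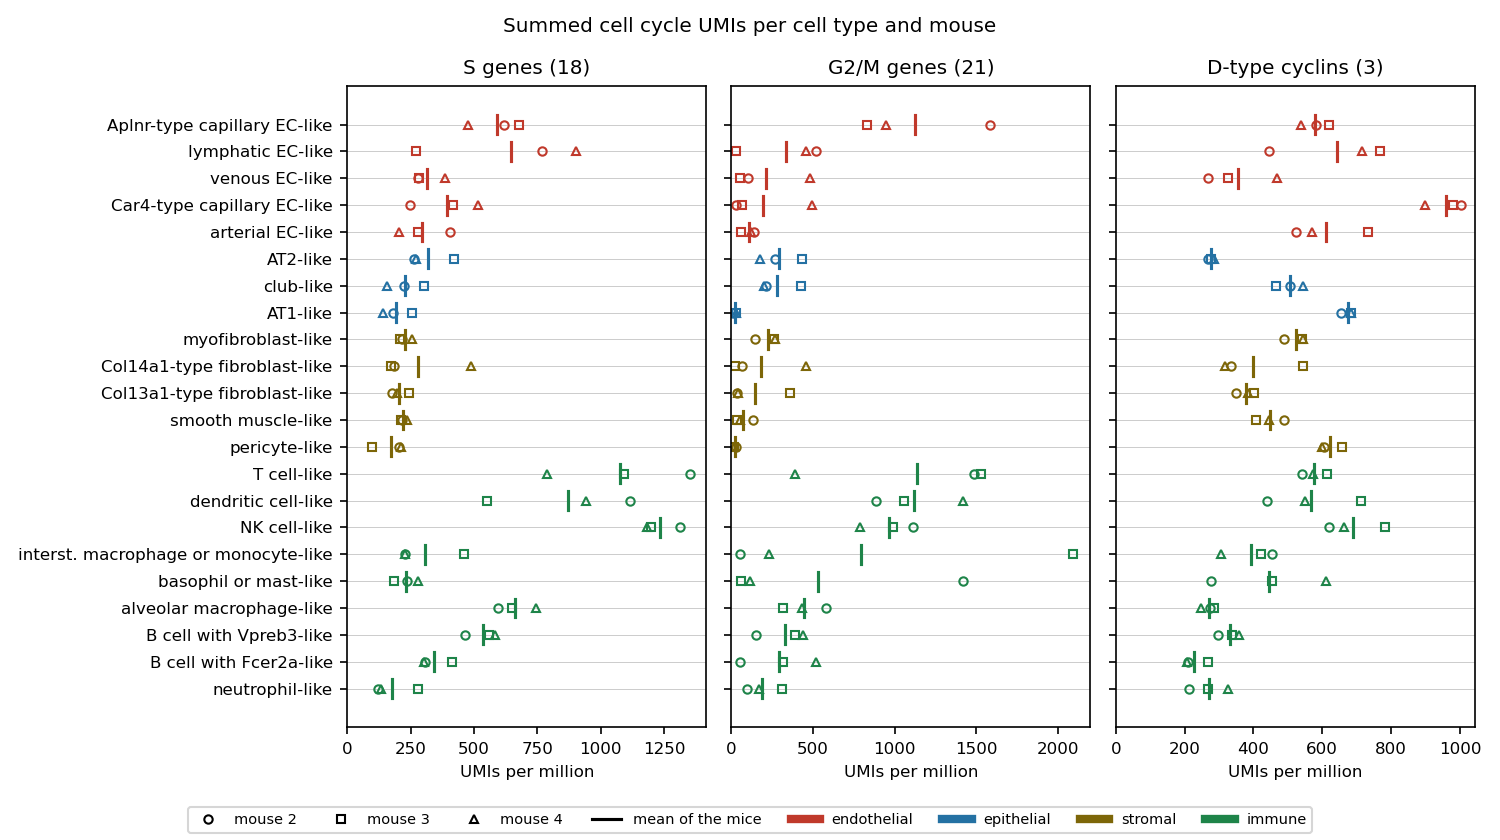
Summed CPM (x axes) of the S, G2/M, and D-type cyclin genes in 22 cell types (y axis, grouped and colored by class), with 1 symbol per mouse and a bar at the mean of the 3 mice. Aplnr-type capillary EC-like cells had 1587, 830.3, and 949.7 G2/M CPM and pericyte-like cells 28.7, 18.5, and 14.7, and for D-type cyclins they had 581, 619, and 539 and 606, 658, and 601 CPM.

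Among ECs, G2/M RNA was found mainly in the cells named Aplnr-type capillary EC-like, after the general capillary marked by Aplnr, Gpihbp1, and Kit. Their summed G2/M level was 1587, 830.3, and 949.7 CPM, against 29.5, 66.95, and 491 CPM in Car4-type capillary, 138, 57.9, and 117 CPM in arterial, 99.7, 52.6, and 484 CPM in venous, and 519, 26.99, and 458 CPM in lymphatic EC-like cells. The 3 Aplnr-type values lay above all others. However, 5580 of the 6334 Aplnr-type G2/M UMIs lay in 1 sub-cluster of 37 cells, whose name changed between settings, as given below. The largest Aplnr-type sub-cluster, of 260 cells, had 81.0, 84.1, and 74.2 G2/M CPM. In all Aplnr-type cells 58 of 525 were G2/M-positive (11.05%, exact 95% CI 8.496 to 14.05%), with 12.1, 13.2, and 8.96% in the mice, and thinned to 1000 UMIs the share was 7.97%. The counts were 5 of 171 in Car4-type, 4 of 164 in arterial, 4 of 105 in venous, and 4 of 25 in lymphatic EC-like cells, and 1 cell held 64.3% of the venous and 46.4% of the Car4-type G2/M UMIs, both in mouse 4. Thinned, these shares were 1.26%, 1.29%, 2.11%, and 8.05%. Lymphatic EC-like cells, at 16% (exact 95% CI 4.54 to 36.1%), numbered fewer than 10 in mice 3 and 4 and were not tested. Median depths were 7749 UMIs in Aplnr-type, 6336 in Car4-type, 7076.5 in arterial, 8948 in venous, and 11357 in lymphatic cells. Of the Car4-type cells, 74 formed a sub-cluster with a median of 863 UMIs, and 48 of the 171 were too shallow to be thinned.

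Tested against the mean of the other EC types, all 20 G2/M genes tested were called higher in Aplnr-type cells, with a median log2 fold change of 2.88, where 8.66% of 12625 genes were called higher and the median was 0.067. Of 17 S genes tested 8 were called higher, with a median of 0.78. Both counts were lower with DESeq2 (17 and 6). Bub1 and Gins2 fell under the count filter in the tests by cell type. The largest differences were those of Ccna2 and Ccnb1, the A- and B-type cyclins of mitotic entry, and Tk1. Ccna2 had 42.3, 23.6, and 34.6 CPM in Aplnr-type cells, 6.32, 0, and 7.80 in Car4-type, 0, 0, and 0 in arterial, and 0, 0, and 11.9 in venous cells. The groups did not overlap (log2 fold change 4.56 ± 0.81, adjusted p = 3.37e-05). Ccnb1 had 36.9, 17.3, and 18.01 CPM against at most 2.38 CPM in any mouse of these 3 types (log2 fold change 4.55 ± 0.72, adjusted p = 4.84e-06). Tk1 had 22.2, 29.9, and 13.9 CPM against 0, 4.62, and 23.4 in Car4-type cells (log2 fold change 3.66 ± 0.79, adjusted p = 0.000583), so that Car4-type cells of mouse 4 lay among the Aplnr-type values. In arterial, venous, and Car4-type cells no S or G2/M gene was called by edgeR. At an unadjusted p under 0.05, 6 G2/M and 3 S genes were lower in arterial cells, 1 S gene was lower in venous cells, and none differed in Car4-type cells, and DESeq2 called 1 G2/M and 1 S gene lower in arterial cells. With the mouse as a block, the S genes Tyms (adjusted p = 0.0592, blocked 0.0471) and Mcm5 (0.0674, blocked 0.0499) were called as well.

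The Aplnr-type result rested on 1 sub-cluster of 37 cells, of which 29 were G2/M-positive. It had a median of 22836 UMIs and 9105, 3435, and 4082 G2/M CPM, and it was led by Casc5, a kinetochore gene that was not left out of the clustering, with Sox11 and the endothelial cadherin Cdh5. Its log2 fold for the Aplnr-type list over other ECs was -0.14. At this depth Aplnr was detected in 94.6% of these cells, Kit in 97.3%, and Plvap in 100%, while the lymphatic marker Ccl21a was at 0 and Prox1 in 2.70%. Beside 64.3% and 48.6% of the other Aplnr-type cells, the lymphatic-list genes Lyve1 and Flt4 were detected in 75.7% and 67.6% of the sub-cluster. By level, Aplnr and Kit were lower there than in the other 488 Aplnr-type cells (435 against 731 CPM and 582 against 871 CPM). The rest of the Aplnr-type list, Gpihbp1, Plvap, Sema3c, Cd93, and Hilpda, was lower too. The Car4-type markers Car4, Tbx2, Ednrb, and Fibin were higher (163 against 93.8 CPM, 249.5 against 47.2 CPM, 166 against 38.02 CPM, and 98.8 against 13.7 CPM), below the 1294, 815, 1311, and 731 CPM of Car4-type cells. Of the same list Apln and Emp2 were higher too (79.3 against 30.6 CPM and 490 against 265 CPM), and Prx was lower (208 against 275 CPM). Of the venous list Nr2f2 (218 against 70.9 CPM) and Vcam1 (16.6 against 5.62 CPM) were higher. Ephb4 (274 against 355 CPM) and Slc6a2 (0 against 8.55 CPM) were lower, and Vwf, Bst1, and Cpe were close (114 against 116, 6.85 against 6.52, and 1.96 against 2.70 CPM). When each EC was typed by its own marker UMIs, an alternative chosen after seeing the data, 35 of the 37 were Aplnr-type, 64 of 579 Aplnr-type cells were G2/M-positive (11.3, 12, and 10.3%), and 20 G2/M genes were called higher. This typing took the list with the most raw UMIs, without scaling. Cd93 of the Aplnr-type list had 1917 CPM in the sub-cluster, and 1183, 1529, and 1509 CPM in Car4-type, arterial, and venous cells. Such a shared marker can dominate the sum, so this typing cannot decide the type of the sub-cluster. Without the sub-cluster, also an alternative chosen after seeing the data, 0 G2/M genes were called by edgeR, 0 at an unadjusted p under 0.05, and the median was 0.035. In 3 alternatives, with doublets removed, with stricter cell filters, and at clustering resolution 0.4, no G2/M gene was called higher in Aplnr-type cells. With doublets removed, 24 of the 37 cells got no EC type, 5 were left out, and 3 were Aplnr-type. With stricter filters, 19 were named lymphatic, 8 were left out, and 6 were Aplnr-type. At resolution 0.4, an EC sub-cluster of 51 cells named lymphatic had Casc5 among its leading genes.

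In the epithelium, G2/M RNA was present in AT2-like and club-like cells and lowest in AT1-like cells. AT2-like cells, the surfactant-making cells that renew the alveolus, had 267, 432, and 173 G2/M CPM. Club-like cells, the secretory cells of the airways, had 209, 427, and 201 CPM. AT1-like cells, the flat cells of gas exchange, had 10.7, 29.995, and 29.6 CPM, below every value of the other types. G2/M-positive cells numbered 46 of 1073 AT2-like (4.29%, exact 95% CI 3.16 to 5.68%), 12 of 48 club-like (25%, 13.6 to 39.6%), and 2 of 167 AT1-like cells (1.198%, 0.145 to 4.26%). The club-like share went with depth, a median of 38565 UMIs against 16234 and 13298. Thinned to 1000 UMIs the shares were 4.68% in club-like, 2.53% in AT2-like, and 0.0553% in AT1-like cells, the last below the neutrophil-like background.

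Of 20 G2/M genes tested, 18 were called lower in AT1-like cells than in the other epithelial types, with a median of -4.18, or -3.21 with genes at 0 UMIs set to their bound, where 19.1% of all genes were called lower and the median was -0.16. AT1-like cells had no UMI of Ccnb1, Hmmr, Aurkb, or the spindle-pole kinase Aurka. Against a floor of 3 UMIs over all AT1-like cells, they were at least 4.28-fold, 5.36-fold, 4.01-fold, and 3.195-fold lower than the other types. Of S genes 7 of 17 were called lower, with a median of -1.04. The G2/M count fell to between 11 and 12 when any 1 mouse was left out, to 11 with stricter cell filters, and to 6 with cell cycle genes kept in the clustering.

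AT2-like cells had 11 of 20 G2/M genes and 10 of 17 S genes called higher, with medians of 2.08 and 0.94, where 21.1% of all genes were called higher and the median was 0.12. The epithelial comparisons are tied, since the log2 fold changes of a gene add to 0 over the types compared. Higher calls in AT2-like and club-like cells are thus not separate from the lower calls in AT1-like cells. Mki67 had 40.1, 76.7, and 25.6 CPM in AT2-like, 27.4, 16.1, and 1.10 CPM in club-like, and 1.07, 1.9997, and 2.27 CPM in AT1-like cells. AT2-like values lay above the AT1-like ones (log2 fold change 3.19 ± 0.76, adjusted p = 0.00058). Aurkb (log2 fold change 3.58 ± 1.02, adjusted p = 0.00442) and Hmmr (log2 fold change 3.07 ± 1.07, adjusted p = 0.0204) were the other largest differences. The G2/M count was 6 with DESeq2, 5 without mouse 3, and 0 with cell cycle genes kept in the clustering. With the mouse as a block Tpx2 was called too (adjusted p = 0.0506, blocked 0.0474). In club-like cells 7 of 20 G2/M genes were called higher (Aurka, Ccnb1, Cdk1, Top2a, Tpx2, Kif23, and Cdc20), with a median of 2.05, and 0 of 17 S genes (0 at an unadjusted p under 0.05 and 0 with DESeq2), with a median of 0.20, where 19.3% of all genes were called higher and the median was -0.033. Aurka had 2.03, 20.9, and 5.49 CPM in club-like and 3.44, 4.16, and 1.36 CPM in AT2-like cells (log2 fold change 4.06 ± 1.04, adjusted p = 0.0013). Ccnb1 (3.95 ± 1.06) and Cdk1 (3.46 ± 0.80) came next. Club-like values of mouse 2 lay among the AT2-like ones for Aurka, and mouse 3 was the high value.

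The stroma had few G2/M-positive cells, and single cells carried much of its G2/M RNA. They numbered 7 of 807 myofibroblast-like (0.867%, exact 95% CI 0.349 to 1.78%), 2 of 288 smooth muscle-like, 2 of 211 Col13a1-type and 2 of 100 Col14a1-type fibroblast-like, and 0 of 135 pericyte-like cells, where a count of 0 allows a share of up to 2.22% by the rule of 3 counts, or 2.70% by the exact interval. A single cell held 74.8% of the G2/M UMIs of the Col14a1-type, 68.9% of the Col13a1-type, and 54.4% of the smooth muscle-like cells. The leading genes of the Col14a1-type cluster included the cartilage genes Col2a1, Col10a1, and Acan beside Dcn and Lum. Summed G2/M levels were 145, 258, and 265 CPM in myofibroblast-like, 133, 32.9, and 50.01 CPM in smooth muscle-like, 34.2, 362, and 42.3 CPM in Col13a1-type, 64.5, 20.4, and 454 CPM in Col14a1-type, and 28.7, 18.5, and 14.7 CPM in pericyte-like cells. Myofibroblast-like values lay above all smooth muscle-like and pericyte-like values. The high value of mouse 3 in Col13a1-type, of mouse 4 in Col14a1-type, and of mouse 2 in smooth muscle-like cells came from the mouse that held the single cell, and both positive Col13a1-type cells scored as doublets. Median depths were 10658 UMIs in myofibroblast-like, 11003 in smooth muscle-like, 9732 in Col13a1-type, 13794 in Col14a1-type, and 6397 in pericyte-like cells. Thinned to 1000 UMIs the myofibroblast-like share was 0.666% and the pericyte-like share 0.00627%.

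Of 20 G2/M genes tested, 2 were called higher in myofibroblast-like cells, Ccnb1 and Mki67, with a median of 1.38, where 12.6% of all genes were called higher and the median was 0.04. Mki67 had 49.2, 85.1, and 69.7 CPM in myofibroblast-like, 17.4, 3.21, and 12.1 CPM in smooth muscle-like, and 0, 0, and 3.69 CPM in pericyte-like cells. The myofibroblast-like values lay above all of these (log2 fold change 2.74 ± 0.65, adjusted p = 0.000876). Of their 592 Mki67 UMIs, 335 lay in the 7 G2/M-positive cells and 257 (43.4%) were spread over 188 other cells. In all, 195 of 807 myofibroblast-like cells (24.2%) carried a Mki67 UMI, while 4 carried Ccnb1. Another G2/M gene was detected in 20.5% of the Mki67-carrying cells and in 15.8% of the others, at medians of 11479 UMIs in carriers and 10658 in all. In AT2-like cells, by contrast, 6.80% carried Mki67, and 75.3% of these carried another G2/M gene. Ccnb1 had 2.61, 2.25, and 6.92 CPM (log2 fold change 3.12 ± 1.11, adjusted p = 0.0357). No S gene was called in myofibroblast-like cells by edgeR or DESeq2, and 1 was higher at an unadjusted p under 0.05.

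The 2 myofibroblast-like clusters differed. A cluster of 358 cells led by Pdgfra and Agt had 276, 445, and 499 G2/M CPM and 766, 716, and 817 D-type cyclin CPM. The cluster of 449 cells led by Aspn and Hhip had 53.8, 34.6, and 54.6 and 295, 334, and 298 CPM. Neither range overlapped the other, and no test was made because clusters are built from the same cells. The G2/M levels rested on few cells, since 5 cells of the first and 2 of the second cluster were G2/M-positive, and 1 cell held 29.1% of all G2/M UMIs of myofibroblast-like cells.

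In pericyte-like cells, which wrap the capillaries, 10 of the 20 G2/M genes tested were at 0 UMIs. Against the floor of 3 UMIs, Top2a was at least 5.99-fold, Cenpf at least 3.63-fold, and Ube2c at least 2.95-fold lower than in the other stromal types. The median G2/M log2 fold change was -2.90, or -1.07 with these genes at their bound, but no S or G2/M gene was called by edgeR. At an unadjusted p under 0.05, 1 G2/M and 2 S genes were lower, and DESeq2 called 2 G2/M genes lower. In Col14a1-type cells edgeR called none, with 1 S gene higher at an unadjusted p under 0.05, and DESeq2 called 2 S genes and 1 G2/M gene higher. Elsewhere in the stroma Mcm6 was called higher in smooth muscle-like (log2 fold change 1.04 ± 0.38, adjusted p = 0.0328) and Slbp lower in Col13a1-type cells (log2 fold change -0.62 ± 0.22, adjusted p = 0.0305), where 15.7% and 10.0% of all genes were called in those directions. Mcm6 had 22.8, 15.3, and 24.3 CPM in smooth muscle-like and 12.4, 4.50, and 9.69 CPM in myofibroblast-like cells, and Slbp had 21.2, 28.6, and 33.8 CPM in Col13a1-type and 39.4, 43.2, and 45.4 CPM in myofibroblast-like cells.

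Among immune cells, T cell-like, NK cell-like, and dendritic cell-like cells had the highest mean summed levels of both S and G2/M genes. Summed S levels were 1354, 1091, and 789 CPM in T cell-like, 1314, 1200.1, and 1185 CPM in NK cell-like, and 1116, 552, and 942 CPM in dendritic cell-like cells. Summed G2/M levels were 1488, 1526, and 391 CPM in T cell-like, 1115, 993, and 787 CPM in NK cell-like, and 883, 1054, and 1420.2 CPM in dendritic cell-like cells, with mouse 4 far below the others among T cell-like cells. A single cell held 33.7% of the T cell-like and 25.6% of the NK cell-like G2/M UMIs, both in mouse 3, and 13.2% of the dendritic cell-like ones, in mouse 4. In mouse 2, 2 of 30 T cell-like cells were G2/M-positive. Both B cell-like types were lower, apart from that T cell-like value, at 152, 387, and 437 G2/M CPM for B cells with Vpreb3, a marker of immature B cells, and 50.2, 314, and 516 CPM for B cells with Fcer2a, a marker of mature B cells. G2/M-positive cells were 22.2% of 180 dendritic cell-like (exact 95% CI 16.4 to 29.01%), 11.3% of 142 T cell-like (6.58 to 17.7%), 9.76% of 164 NK cell-like (5.68 to 15.4%), 7.04% of 71 alveolar macrophage-like (2.33 to 15.7%), 1.96% of 867 Vpreb3 B cell-like (1.15 to 3.12%), and 1.18% of 936 Fcer2a B cell-like cells (0.588 to 2.09%). Thinned to 1000 UMIs these shares were 14.3%, 5.93%, 5.70%, 8.21%, 1.61%, and 1.18%, beside the neutrophil-like background of 2.003%, or 0.378% without Kif23. Without Kif23 the Vpreb3 and Fcer2a B cell-like shares were 1.55% and 1.16%. For S genes the thinned share was 14.6% in dendritic cell-like, 9.80% in T cell-like, 17.01% in NK cell-like, and 15.1% in alveolar macrophage-like cells. Of the 40 positive dendritic cell-like cells, 0 scored as doublets. In the order of the G2/M shares, median depths were 8651, 5503.5, 6282, 4908, 3631, and 4379 UMIs.

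Against the mean of the other immune types, 14 of 17 S genes were called higher in NK cell-like cells (median 1.84, 15.3% of all genes called higher, median of all 0.056). In T cell-like cells 11 were (median 1.78, 14.0% of all genes, median of all 0.051), and in dendritic cell-like cells 12 were (median 1.43, 22.3%, median of all 0.19). Of 20 G2/M genes, 15 were called higher in dendritic cell-like (median 2.13), 7 in T cell-like (median 1.79), and 5 in NK (median 1.65), of which DESeq2 called 0. The T cell S count fell to 6 without mouse 2 and to 3 when G2/M-positive cells were left out. The dendritic G2/M count was 5 with DESeq2, 8 without mouse 4, 6 with doublets removed, and 0 with stricter cell filters. The name covered other cells in the last 2: of the 180 dendritic cell-like cells, 56 and 34 kept it, and 123 and 73 were named interstitial macrophage or monocyte. With the mouse as a block Cenpe was called in NK cell-like cells (adjusted p = 0.0609, blocked 0.0421).

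Hells, a chromatin remodeler needed for DNA methylation, was among the largest S differences in both T cell-like and NK cell-like cells. It had 102, 39.2, and 71.7 CPM in T cell-like, 53.2, 60.96, and 61.4 CPM in NK cell-like, 45.8, 19.7, and 57.5 CPM in dendritic cell-like, and 0, 0, and 0 CPM in neutrophil-like cells. All values of the first 3 types lay above the last, which had no Hells UMI (T cell-like log2 fold change 3.23 ± 0.67, adjusted p = 0.000164, NK cell-like log2 fold change 3.14 ± 0.65, adjusted p = 0.000146). Cdc6 led in NK cell-like cells (log2 fold change 3.17 ± 0.85, adjusted p = 0.00362), together with Hmmr (2.47 ± 0.83). Ube2c had 351, 115, and 43.04 CPM in T cell-like and 66.7, 132, and 173 CPM in dendritic cell-like cells, with mouse 4 lowest of the T cell-like values (T cell-like log2 fold change 3.04 ± 0.78, adjusted p = 0.00266, dendritic cell-like log2 fold change 2.98 ± 0.72, adjusted p = 0.000925). Ccnb2 in T cell-like (2.86 ± 0.73) and Cenpf in dendritic cell-like cells (2.74 ± 1.00) were also among the largest differences. In alveolar macrophage-like cells Cdc45, Pcna, and Bub1b, a spindle checkpoint kinase, were called higher (2.86 ± 1.05, 1.56 ± 0.49, and 1.92 ± 0.54), where 14.3% of all genes were.

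The 2 B cell-like types were compared directly. In this comparison no member was called by edgeR, where 5.62% of all genes were called. At an unadjusted p under 0.05, 5 S genes, 1 D-type cyclin, and 0 G2/M genes were higher in the Vpreb3 type. DESeq2 also called none, with 3 S genes at an unadjusted p under 0.05. The median log2 fold change was 0.62 for S and 0.015 for G2/M genes, with the median of all genes at 0. Between 1 and 3 S genes were called in 5 alternatives, those without TMM, without the low-count filter, with doublets removed, with stricter cell filters, and without mouse 3. Summed S levels were 463, 561, and 585 CPM in the Vpreb3 and 307, 412, and 303 CPM in the Fcer2a type, and they did not overlap. Against all other immune types, Hells (log2 fold change 2.05 ± 0.75, adjusted p = 0.0279), Uhrf1 (log2 fold change 1.68 ± 0.66, adjusted p = 0.0408), and Mcm7 (0.57 ± 0.23) were called higher in the Vpreb3 type, where 26.2% of all genes were called higher. Tyms was called lower in the Fcer2a type (log2 fold change -1.61 ± 0.58, adjusted p = 0.0228). Kif23 was called lower in both (-1.53 ± 0.46 and -1.30 ± 0.43), where 8.59% and 8.08% of all genes were called lower.

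Kif23 (ENSMUSG00000032254, chr9:61915905-61946774, minus strand in mm10) stood apart from the other G2/M genes in neutrophil-like cells. It had 76.7, 111, and 95.7 CPM there, 57.2, 59.2, and 111 CPM in dendritic cell-like, 39.2, 26.1, and 39.7 CPM in NK cell-like, and 27.7, 28.3, and 10.8 CPM in T cell-like cells. Neutrophil-like values overlapped the dendritic cell-like ones and lay above the NK cell-like and T cell-like ones (log2 fold change 2.65 ± 0.39, adjusted p = 7.68e-08, 25.7% of all genes called higher). A Kif23 UMI was found in 82 of 466 neutrophil-like cells (15, 42, and 25 in the mice), with at most 4 in a cell. Another G2/M gene was detected in 5 of these 82 cells (6.10%) and in 4.43% of the neutrophil-like cells without Kif23. In dendritic cell-like cells 61.4% of the Kif23-carrying cells had another G2/M gene, against 38.2% of the rest. Of the 247 G2/M UMIs of neutrophil-like cells, 112 were from Kif23 and 103 lay in 1 cell.

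Other calls in neutrophil-like cells were Bub1b (-2.64 ± 1.03), Mcm6 (-2.46 ± 0.98), Mcm7, and Dut, all lower, where 12.3% of all genes were, and Slbp, higher, at 72.7, 82.6, and 78.8 CPM (log2 fold change 0.78 ± 0.21, adjusted p = 0.00178). Mcm6 was lost with the mouse as a block (adjusted p = 0.0417, blocked 0.0524), and library totals in place of TMM moved the median of all genes there by -0.62. In interstitial macrophage or monocyte-like cells Dut (-2.40 ± 0.74) and Mcm4 (-2.47 ± 0.88) were called lower, where 3.98% of all genes were, Mcm4 not with the mouse as a block (0.0478, blocked 0.0525), and 1 cell held 84.9% of the G2/M UMIs. In basophil or mast-like cells Pcna and Mcm2 were called lower, where 4.21% of all genes were. That fit left out mouse 2, which had 6 such cells, and 6 G2/M and 6 S genes were at 0 UMIs in this type.

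**Figure D4:**
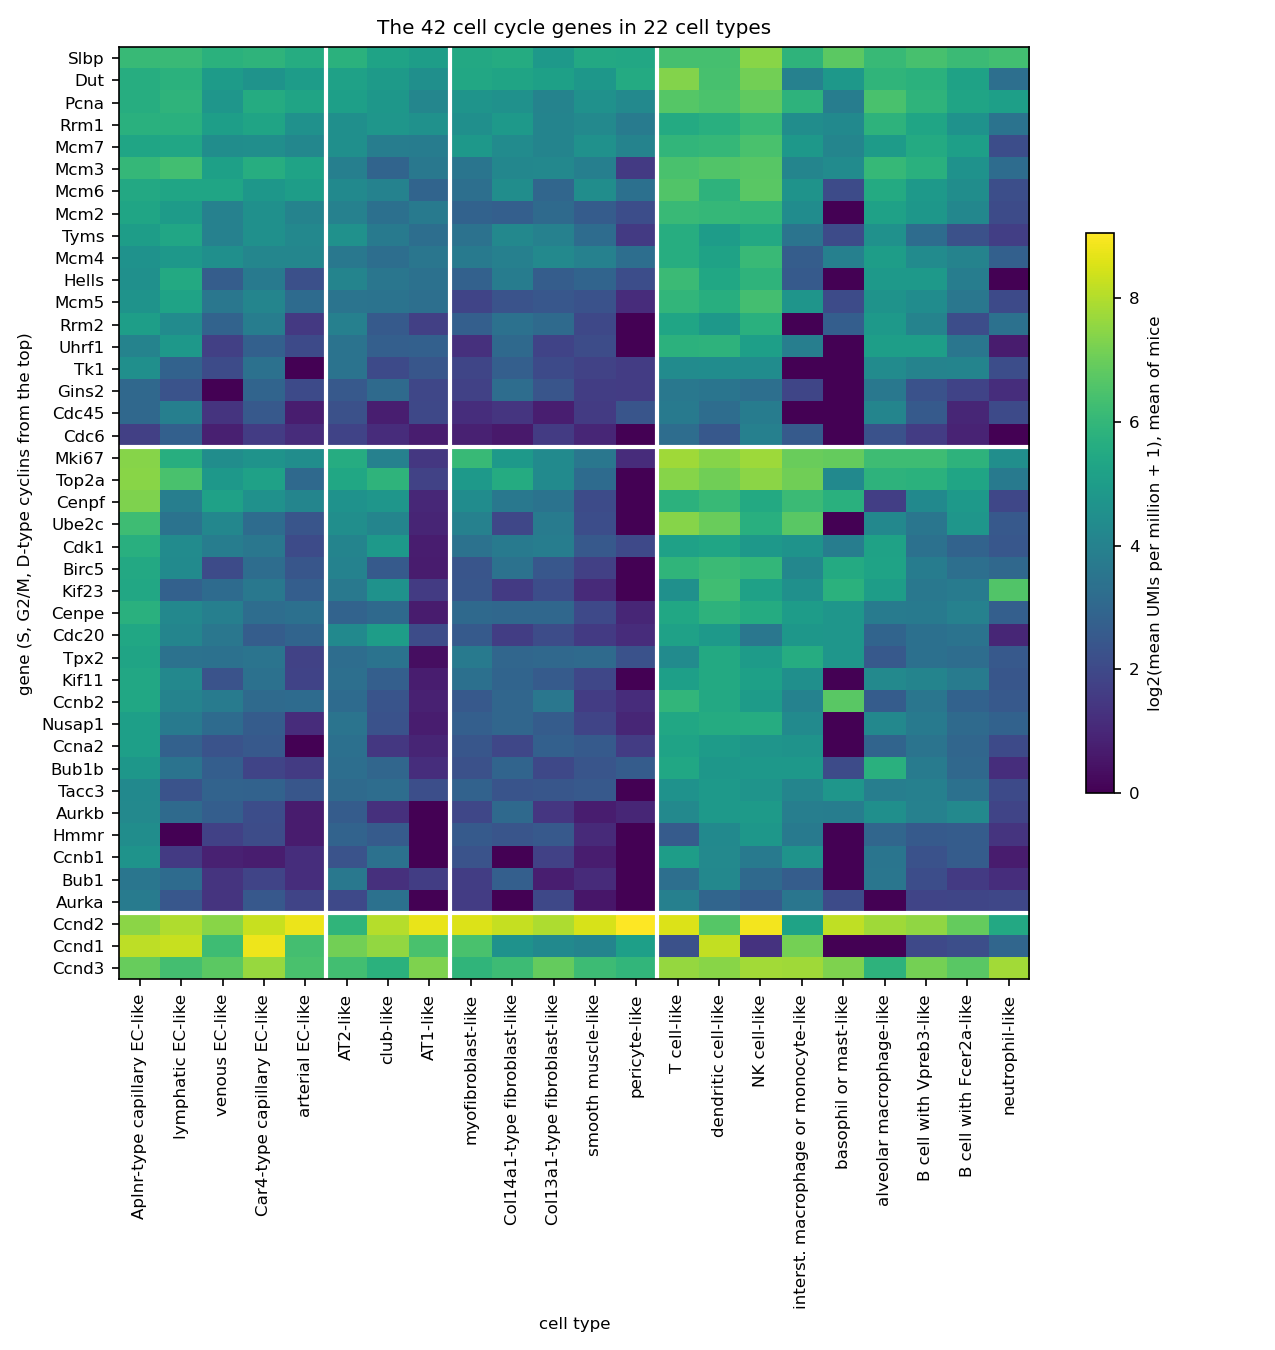
Rows are the 42 genes, S genes on top, G2/M genes in the middle, and D-type cyclins at the bottom, and columns are 22 cell types in 4 classes. Color is log2 of the mean CPM of 3 mice plus 1. The G2/M block is bright in Aplnr-type capillary, T cell-like, dendritic cell-like, and NK cell-like columns and dark in AT1-like and pericyte-like ones, and Kif23 alone of the G2/M genes is bright in the neutrophil-like column (76.7, 111, and 95.7 CPM).

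The 3 D-type cyclins were divided between cell types, and their order did not follow that of the G2/M genes. At the level of classes, Ccnd1 had 248, 254, and 236 CPM in EC-like, 136, 145, and 134 CPM in epithelial-like, 46.1, 48.2, and 65.04 CPM in stromal-like, and 40.7, 41.7, and 42.4 CPM in immune-like cells. EC-like values lay above epithelial-like and these above the rest (EC-like log2 fold change 1.58 ± 0.074, adjusted p = 1.05e-10). Ccnd2 had 213, 268, and 243 CPM in EC-like, 116, 107, and 150.4 CPM in epithelial-like, 357, 357, and 361 CPM in stromal-like, and 152, 204, and 174 CPM in immune-like cells. Stromal-like values lay above all others (log2 fold change 0.92 ± 0.097, adjusted p = 8.48e-07), and in EC-like cells the difference was -0.017 ± 0.10, or 0.27 with library totals in place of TMM. Ccnd3 had 122, 135, and 112 CPM in EC-like, 86.2, 81.4, and 87.4 CPM in epithelial-like, 66.3, 82.4, and 67.9 CPM in stromal-like, and 144, 163, and 142 CPM in immune-like cells. It was called higher in immune-like (log2 fold change 0.77 ± 0.076, adjusted p = 2.77e-07) and lower in stromal-like cells (log2 fold change -0.81 ± 0.082, adjusted p = 5.7e-07).

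Among EC types Ccnd1 was highest in Car4-type cells, the aerocytes that line the thin side of the capillary net. It had 533, 383, and 435 CPM in Car4-type, 275, 326, and 251 CPM in Aplnr-type, 91.7, 81.8, and 68.7 CPM in arterial, and 33.98, 66.9, and 124 CPM in venous EC-like cells. Car4-type values lay above Aplnr-type values and these above arterial and venous ones, which overlapped. It was called higher in Car4-type (log2 fold change 1.88 ± 0.19, adjusted p = 9.23e-12) and Aplnr-type cells (1.00 ± 0.18), and lower in arterial (-1.37 ± 0.25) and venous cells (-1.51 ± 0.26). Car4-type cells thus had the most Ccnd1, with 5 of 171 cells G2/M-positive. Their deeper sub-cluster had 4 of 97 (4.12%). The Aplnr-type sub-clusters had 7 of 260 (2.69%), 12 of 154 (7.79%), 10 of 74 (13.5%), and 29 of 37 (78.4%). The last was led by a kinetochore gene, so the share left in the others depends on the clustering and cannot be set against that of Car4-type cells. Arterial and venous EC-like cells had 4 of 164 (2.44%) and 4 of 105 (3.81%), so a low share was not particular to Car4-type cells. Ccnd2 was instead highest in arterial EC-like cells, at 356, 555, and 419.8 CPM against 181, 159.8, and 183 CPM in Aplnr-type cells (log2 fold change 1.10 ± 0.17, adjusted p = 8.47e-07), and it was called lower in Aplnr-type (-0.72 ± 0.18) and venous cells (-0.72 ± 0.20). Ccnd3 was called higher in Car4-type (0.92 ± 0.16) and lower in arterial cells (-0.67 ± 0.18). Of all genes 8.52% were called higher in Car4-type and 7.98% in arterial cells, and 6.48%, 5.63%, and 3.82% were called lower in arterial, venous, and Aplnr-type cells.

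In the epithelium the cyclins split between the alveolar types. Ccnd2 had 426, 404, and 462 CPM in AT1-like and 53.1, 57.8, and 66.3 CPM in AT2-like cells, without overlap (AT1-like log2 fold change 1.38 ± 0.17, adjusted p = 2.12e-09, AT2-like log2 fold change -2.41 ± 0.20, adjusted p = 2e-15). Ccnd1 had 46.2, 148, and 67.5 CPM in AT1-like, 139, 139.9, and 140.1 CPM in AT2-like, and 203, 177, and 185 CPM in club-like cells. It was called lower in AT1-like cells (-1.46 ± 0.22), where mouse 3 reached the AT2-like level, and higher in club-like cells (1.15 ± 0.20). Ccnd3 was called higher in AT1-like (0.88 ± 0.15) and lower in club-like cells (-0.76 ± 0.18). AT1-like cells, lowest for G2/M genes, had the highest summed D-type cyclin level of the epithelium, 655, 684, and 683 CPM against 269, 277, and 286 in AT2-like and 506, 467, and 543 CPM in club-like cells, with no overlap. Of all genes 15.3% were called higher in AT1-like cells, and 13.7% and 17.5% were called lower in AT2-like and club-like cells. In the stroma Ccnd1 was called higher in myofibroblast-like (73.3, 84.7, and 98.8 CPM, log2 fold change 1.88 ± 0.22, adjusted p = 8.37e-10) and lower in smooth muscle-like cells (20.8, 8.03, and 19.3 CPM, -0.95 ± 0.34). Ccnd2 was called higher in pericyte-like cells (511, 566, and 505 CPM, log2 fold change 0.58 ± 0.17, adjusted p = 0.00892) and lower in Col13a1-type cells (-0.64 ± 0.18), which had more Ccnd3 (104, 123, and 128 CPM, 0.85 ± 0.16). Ccnd3 was called lower in myofibroblast-like cells (-0.54 ± 0.15). Of all genes 11.6% and 15.3% were called higher in pericyte-like and Col13a1-type cells, and 9.18% and 9.89% lower in myofibroblast-like and smooth muscle-like cells.

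Among immune cells Ccnd1 was high in 2 types. It had 235, 347, and 299 CPM in dendritic cell-like and 98.6, 210.4, and 117 CPM in interstitial macrophage or monocyte-like cells, against at most 16.9 CPM in any mouse of the T cell-, NK cell-, B cell-, and neutrophil-like types. Both were called higher (dendritic cell-like log2 fold change 6.94 ± 0.34, adjusted p = 4.46e-24, interstitial log2 fold change 5.37 ± 0.65, adjusted p = 2.77e-09). Pooled over cells, dendritic cell-like cells had 298 CPM and the other immune types together 7.64 CPM. Basophil or mast-like and alveolar macrophage-like cells had no Ccnd1 UMI, at least 2.67-fold and 6.85-fold lower than the other immune types. Ccnd2 was highest in NK cell-like (389.6, 519, and 498 CPM, log2 fold change 1.71 ± 0.17, adjusted p = 3.67e-12) and T cell-like cells (277, 442, and 409 CPM, 1.31 ± 0.18), and it was also called higher in basophil or mast-like cells (0.99 ± 0.31). It was called lower in neutrophil-like (-1.29 ± 0.29), dendritic cell-like (-0.56 ± 0.21), and interstitial macrophage or monocyte-like cells (-2.81 ± 0.40, but 0.021 with stricter cell filters, where that name took in cells of the dendritic cell-like type). Ccnd3 was called higher in neutrophil-like (162, 238, and 259 CPM, log2 fold change 1.43 ± 0.15, adjusted p = 9.22e-12) and NK cell-like cells (0.43 ± 0.15), and lower in Fcer2a B cell-like (-0.51 ± 0.14) and alveolar macrophage-like cells (-1.54 ± 0.28). Of all genes 10.8% and 6.24% were called higher in the interstitial and basophil or mast-like types, and 5.67% and 10.5% lower in dendritic cell-like and alveolar macrophage-like cells.

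**Figure D5:**
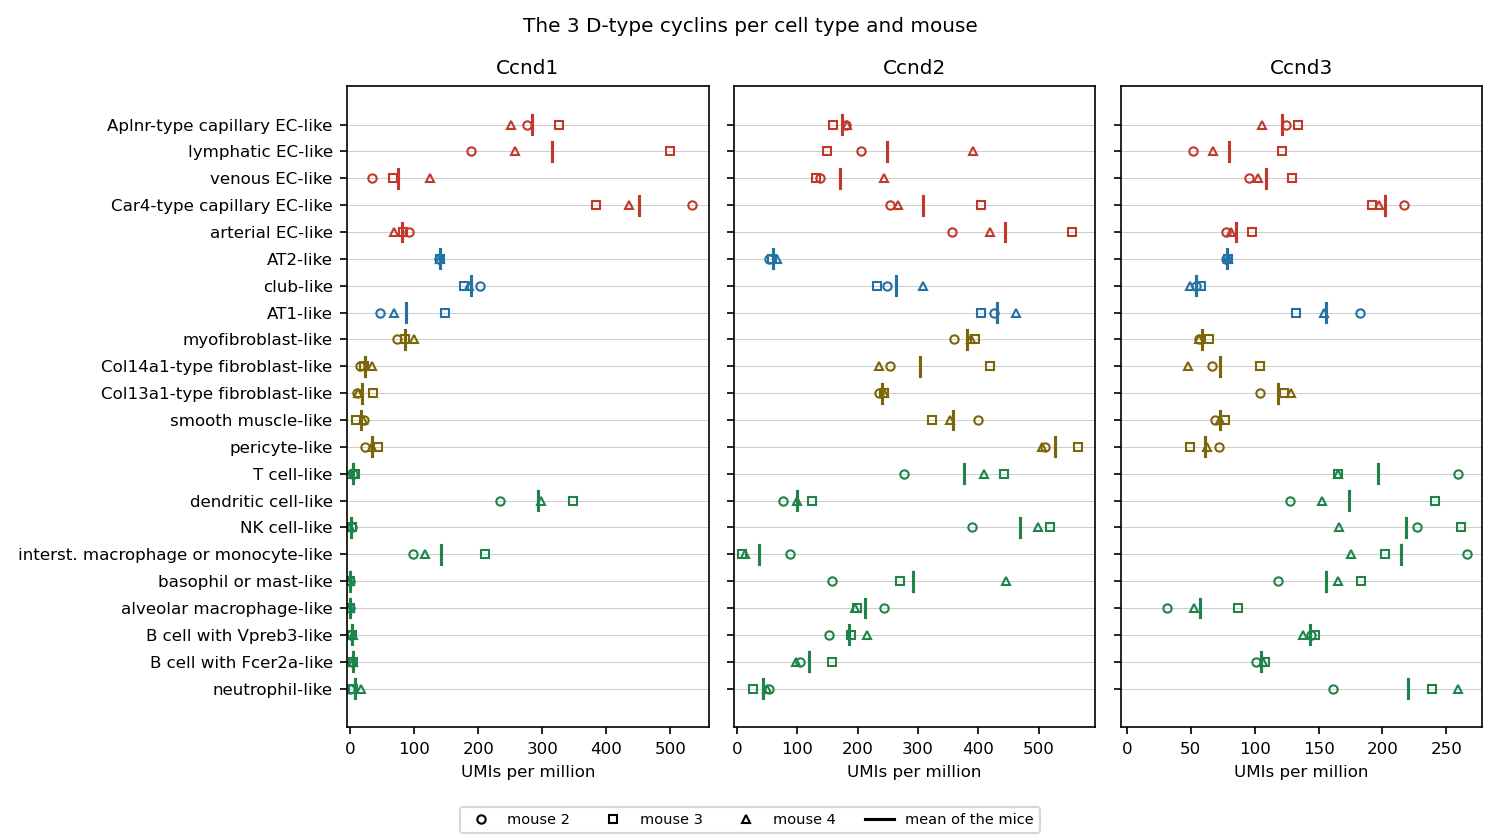
CPM (x axes) of Ccnd1, Ccnd2, and Ccnd3 in 22 cell types (y axis, colored by class: endothelial red, epithelial blue, stromal brown, immune green), with 1 symbol per mouse and a bar at the mean of 3 mice. Ccnd1 peaks in Car4-type capillary EC-like cells (533, 383, and 435 CPM), Ccnd2 in pericyte-like cells (511, 566, and 505 CPM), and Ccnd3 in neutrophil-like (162, 238, and 259 CPM) and NK cell-like cells (227, 261, and 166 CPM).

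A list of 56 other cell cycle genes was followed beside the members, of which 54 could be tested in the classes. Called higher and lower were 19 and 12 in EC-like, 12 and 17 in epithelial-like, 33 and 11 in immune-like, and 10 and 30 in stromal-like cells. Of all genes 30.2% and 30.0%, 34.5% and 35.8%, 37.5% and 38.5%, and 36.4% and 31.0% were called higher and lower in the same order. Of its 8 genes of mitotic entry and exit, such as Plk1 and Cdc25c, 7 were called lower in stromal-like cells and 6 higher in immune-like cells, with medians of -1.32 and 0.72. The stromal-like class had Gas1 called higher (log2 fold change 6.74 ± 0.18, adjusted p = 1.23e-13), a gene named for its rise in growth arrest, and also Cdkn2c (log2 fold change 3.22 ± 0.12, adjusted p = 4.84e-12). The repressor-type factor E2f7 was called higher in EC-like cells (log2 fold change 2.28 ± 0.40, adjusted p = 0.000196). E2f2, an activating E2F factor, was called higher in immune-like (log2 fold change 3.12 ± 0.11, adjusted p = 1.45e-12) and epithelial-like (2.33 ± 0.11) and lower in EC-like (-1.62 ± 0.17) and stromal-like cells (-3.83 ± 0.18). Btg1, an antiproliferative gene, was called higher in immune-like (log2 fold change 2.42 ± 0.069, adjusted p = 2.17e-13) and lower in EC-like cells (-1.12 ± 0.082). Gas1 was called lower in epithelial-like (-2.64 ± 0.60) and immune-like cells (-4.84 ± 0.54).

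The CDK inhibitors, which hold cyclin-dependent kinases inactive, differed in the cell types where they were high, and some of these types were shared. Cdkn2b (p15) had 196, 178, and 192 CPM in AT1-like and 105, 150.1, and 72.1 CPM in Car4-type cells, against 4.19, 3.72, and 3.94 CPM in AT2-like and 11.3, 5.51, and 3.23 CPM in Aplnr-type cells, without overlap (AT1-like log2 fold change 4.72 ± 0.24, adjusted p = 1.42e-20, Car4-type log2 fold change 5.95 ± 0.40, adjusted p = 7.23e-16). At class level Cdkn2b was called higher in epithelial-like (3.99 ± 0.28) and EC-like (2.76 ± 0.33) and lower in stromal-like cells (-3.76 ± 0.60). Cdkn1c (p57) had 606, 633, and 560.2 CPM in pericyte-like and 225, 353, and 275 CPM in arterial EC-like cells (pericyte-like log2 fold change 2.24 ± 0.21, adjusted p = 2.36e-13, arterial log2 fold change 4.16 ± 0.30, adjusted p = 2.77e-17). It also had 239, 338, and 742 CPM in club-like cells (log2 fold change 6.12 ± 0.26, adjusted p = 3.88e-27), a type with G2/M-positive cells, and it was called lower in immune-like cells (-4.62 ± 0.39).

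Cdkn2c (p18) had 197, 218, and 199.8 CPM in myofibroblast-like and 189, 182, and 173 CPM in Col13a1-type cells (2.22 ± 0.17 and 2.12 ± 0.19), and it was called lower in epithelial-like cells (-2.03 ± 0.17). In ECs it was called higher in Aplnr-type cells (64.5, 56.7, and 41.1 CPM, log2 fold change 2.66 ± 0.30, adjusted p = 1.29e-09). It was detected in 16.2% of these cells. This type had the most G2/M RNA, but 5580 of its 6334 G2/M UMIs lay in the sub-cluster of 37 cells. No value of Cdkn2c without that sub-cluster is given. For the whole EC-like class the log2 fold change of Cdkn2c was 0.33, and -0.58 with G2/M-positive cells left out. Cdkn2d (p19) was called higher in neutrophil-like cells (162, 165, and 160.4 CPM, log2 fold change 2.63 ± 0.18, adjusted p = 3.19e-19). Cdkn1a (p21) was called higher in neutrophil-like (254, 223, and 189 CPM, log2 fold change 5.24 ± 0.56, adjusted p = 9.77e-12) and Car4-type cells (192, 268, and 144 CPM, 2.89 ± 0.48), and it was called in the epithelial-like class with the mouse as a block (adjusted p = 0.0741, blocked 0.0268). Cdkn1b (p27) was called higher in T cell-like cells (259, 309, and 244 CPM, log2 fold change 0.99 ± 0.14, adjusted p = 4.04e-08). Cdkn2a was too rare to test, with 1.09, 3.34, and 1.32 CPM in EC-like cells.

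The 259 G2/M-positive cells of the named classes were last compared with all other cells of these classes, mouse by mouse. This is a description with no test, since the cells were split by G2/M UMIs and S genes rise in the same cells. All 18 S genes were higher in positive cells in every mouse, with a median ratio of means of 8.46. The share of all genes that differ this way was not computed, so this count and those below have no background. Rrm2 had 122, 145, and 100.1 CPM in positive and 1.41, 1.49, and 1.05 CPM in other cells, and Slbp had 129, 154, and 121 and 44.97, 52.5, and 47.7 CPM. The ratio was thus 92.9 for Rrm2 and 2.78 for Slbp, the lowest of the set. The D-type cyclins behaved otherwise. Ccnd1 was higher in positive cells (189, 185, and 162 against 108, 91.2, and 111 CPM), Ccnd2 was lower (153, 181, and 166 against 209.5, 230.2, and 234 CPM), and Ccnd3 was slightly higher within each mouse, with ranges that overlapped (96.8, 136, and 103 against 95.9, 113, and 94.8 CPM).

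Of the other cell cycle genes, all 8 of mitotic entry and exit and all 6 of origin licensing were higher in positive cells in every mouse. Both lists belong to the same division cycle as the genes that made the split, so these counts are no separate support. The ratio was 211 for the mitotic phosphatase Cdc25c and 44.4 for the mitotic kinase Plk1, 27.8 and 17.6 for the mitotic transcription factors Foxm1 and Mybl2, and 47.4 and 31.5 for the repressor-type factors E2f8 and E2f7. Of the CDK inhibitors Cdkn1a, Cdkn1c, Cdkn2c, and Cdkn2d were higher in positive cells (2.99, 1.60, 2.03, and 2.79), and the ranges of the others overlapped. Of 8 quiescence and antiproliferative genes none was higher, and Btg1, Btg2, and Gas1 were lower (0.451, 0.594, and 0.360). Cdk6, a partner of the D-type cyclins, was lower as well (0.811). The positive cells came from other proportions of the cell types than the rest, and the part of this mix in these ratios was not tested.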

How the data were processed

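Whole lungs of 3 mice were dissociated and cells were captured with the 10x Genomics 3′ v3 chemistry, 1 library per mouse. The deposited values are UMI counts per gene and cell, which the authors made with Cell Ranger 3.0.2 on mm10 according to the submitters' processing notes. The gene annotation and the use of strand were not given in the sources used here, so reads of 12 members that overlap a counted gene on the opposite strand (Mcm7, Gins2, Cdc45, Tk1, Ccna2, Cdc20, Ube2c, Nusap1, Tacc3, Ccnd1, Ccnd2, and Ccnd3) may include that gene, and Pcna shares sequence with the pseudogene Pcna-ps2 (19 UMIs). The series' design text gives 5677 cells, beside 9644 deposited barcodes and 7642 kept here. The members and lists were chosen with earlier results of these data known.

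Cells under 200 detected genes or above a mitochondrial share of 20% were dropped. Clusters were made with Seurat 5.3.0 and sctransform 0.4.2 (R 4.3.3, 3000 variable genes, 30 principal components for the lung and 20 within a class, resolution 0.8) after leaving out the members and the other listed cell cycle genes, and were named when at least 3 markers were detected with a mean log2 fold of at least 1 over other cells. EC sub-clusters took the type whose list was highest relative to other ECs. Doublets were scored with scanpy 1.11.5 (Python 3.11.15) and 59, 80, and 18 cells were marked. In mice 2 and 3 the automatic threshold marked 0.369% and 0.0664%, under 0.5%, so 0.8% per 1000 cells was used there. Marked cells were kept in the main results.

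UMI counts were summed per mouse and class or type (at least 10 cells) and tested across all genes with edgeR 4.0.16 (TMM, filterByExpr, quasi-likelihood test), with Benjamini-Hochberg adjustment. Errors of log2 fold changes (±) are standard errors. For each gene the log2 fold changes add to 0 over the classes, and over the tested types of a class, so these comparisons are not independent. The scripts were tested on simulated data. DESeq2 1.42.0 was an alternative, as were no TMM, no filter, doublets removed, stricter cell filters (500 genes, 10% mitochondrial UMIs), cell cycle genes kept in the clustering, resolutions of 0.4 and 1.2, class from own markers, positive cells left out, at least 20 cells per sum, other UMI minimums, each mouse left out, and the mouse as a block. Cell types of the same mouse come from the same animal, so the mouse pairs them: over 12464 genes, deviations from the class means had a median correlation of 0.116 in 18 pairs of the same mouse and of -0.0763 in 36 pairs of different mice. The deviations of a class add to 0 over its 3 mice. The negative value is thus tied to the positive one by the calculation and is no separate sign of pairing. A fold against 0 UMIs used a floor of 3 UMIs over the group. Thinned shares are expected values from the hypergeometric distribution, computed with scipy 1.17.1.

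Named in full were the 6 S and 8 G2/M genes with the highest pooled CPM, the D-type cyclins, the 3 members with the largest difference in each comparison among those called, the 2 highest and 2 lowest other cell cycle genes called in each class, and each CDK inhibitor detected.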

Additional observations from a re-analysis of the deposited data

Results flagged for a closer look

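A cluster outside the 4 named classes held G2/M RNA above the neutrophil-like background in every mouse. It had 505 cells, of which 39 were G2/M-positive, and it was left unnamed because no marker list reached the minimum, although its leading genes included Sox7, Sox18, and Epas1, which ECs express. Its median was 840 UMIs. Its summed G2/M level was 1814, 1525, and 1330.1 CPM, with a mean of 1556 CPM. A UMI of an EC marker was found in 82.2% of its cells, the median share of mitochondrial UMIs was 0.563%, and its positive cells had a median of 870 UMIs, of which 14 were from G2/M genes. The part of shallow or damaged cells in this signal was not tested, and none of these cells entered a comparison between cell types.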

How the results depend on the processing

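The 180 gene results named in the text were recomputed under each alternative. The side of the threshold was kept 2303 times, the call was lost 192 and gained 31 times, and the sign turned 24 times. A turned sign was counted only where the gene was called in the main or the alternative fit. The 2303 can thus include signs that turned in genes called in neither. Given here are counts that moved by over 1.5 times, levels and shares that moved by over 1 SD, and the log2 fold changes counted as turned. The cause was not tested, but where cells were clustered anew a name can cover other cells, as given above for the dividing and the dendritic cell-like cells.

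With library totals in place of TMM, calls were 11 S genes higher in EC-like, 9 S genes lower in epithelial-like, and 9 G2/M genes lower in epithelial-like cells, and log2 fold changes turned to 0.27 for Ccnd2 in EC-like and -0.27 for Slbp in epithelial-like cells. With cell cycle genes kept in the clustering, calls were 4 G2/M genes higher in EC-like, 8 S genes lower in epithelial-like, 14 G2/M genes lower in epithelial-like, 5 G2/M genes lower in stromal-like, 1 G2/M gene higher in Aplnr-type, 6 G2/M genes lower in AT1-like, and 0 G2/M genes higher in AT2-like cells, and log2 fold changes turned to -0.21 for Mki67, -0.19 for Top2a, -0.55 for Ube2c, -0.10 for Birc5, -0.33 for Kif23, and -0.45 for Cdkn2c in EC-like, -1.88 for Birc5 in epithelial-like, 0.68 for Mki67, 0.048 for Ube2c, and 0.082 for Cdk1 in stromal-like, and -0.71 for Hmmr in AT2-like cells. There levels were 384 S CPM and 170.0 G2/M CPM in EC-like, 67.7 G2/M CPM in epithelial-like, and 485 S CPM and 302 G2/M CPM in immune-like cells and shares of cells were 20.6% for S and 4.90% for G2/M in EC-like and 2.63% for G2/M in epithelial-like cells. With G2/M-positive cells left out, calls were 5 S genes lower in epithelial-like, 11 S genes lower in stromal-like, and 3 S genes higher in T cell-like cells, and log2 fold changes turned to -0.58 for Cdkn2c in EC-like and 0.17 for Dut in stromal-like cells. With doublets removed, calls were 1 G2/M gene lower in epithelial-like, 0 G2/M genes higher in Aplnr-type, and 6 G2/M genes higher in dendritic cell-like cells, and log2 fold changes turned to 0.41 for Mcm4 in interstitial macrophage or monocyte-like cells. There levels were 107 G2/M CPM in stromal-like cells and shares of cells were 0.484% for G2/M in stromal-like cells. With stricter cell filters (500 genes, 10% mitochondrial UMIs), calls were 5 G2/M genes lower in epithelial-like, 0 G2/M genes higher in Aplnr-type, 11 G2/M genes lower in AT1-like, and 0 G2/M genes higher in dendritic cell-like cells, and log2 fold changes turned to -1.46 for Ccna2, -2.69 for Ccnb1, and -0.21 for Tk1 in Aplnr-type and 0.021 for Ccnd2 and 0.056 for Mcm4 in interstitial macrophage or monocyte-like cells. There levels were 658 S CPM, 713 G2/M CPM, and 410.1 D-type cyclin CPM in immune-like cells and shares of cells were 24.7% for S in EC-like, 1.24% for G2/M in stromal-like, and 9.33% for S and 4.95% for G2/M in immune-like cells. With the class of each cell taken from its own markers, calls were 5 G2/M genes lower in epithelial-like cells. There levels were 525 S CPM in EC-like and 216 G2/M CPM in stromal-like cells and shares of cells were 15.9% for S in EC-like and 1.51% for G2/M in stromal-like cells. Without the low-count filter, calls were 5 G2/M genes lower in epithelial-like and 18 G2/M genes higher in AT2-like cells. At resolution 0.4, calls were 0 G2/M genes higher in Aplnr-type cells, and log2 fold changes turned to -1.07 for Ccna2, -2.08 for Ccnb1, and -0.38 for Tk1 in Aplnr-type cells. Without the leading EC sub-cluster, added after seeing the data, calls were 0 G2/M genes higher in Aplnr-type cells. With DESeq2, calls were 6 G2/M genes higher in AT2-like and 5 G2/M genes higher in dendritic cell-like cells. With at least 20 cells per sum, calls were 18 G2/M genes higher in AT2-like cells. With 2 UMIs as the minimum, shares of cells were 56.1% for S and 13.8% for G2/M in EC-like, 66.1% for S and 12.3% for G2/M in epithelial-like, 57.8% for S and 10.2% for G2/M in stromal-like, and 36.1% for S and 9.17% for G2/M in immune-like cells. With 10 UMIs as the minimum, shares of cells were 9.62% for S and 6.43% for G2/M in EC-like, 6.47% for S in epithelial-like, 1.69% for S and 0.653% for G2/M in stromal-like, and 3.38% for S and 2.41% for G2/M in immune-like cells. With at least 3 genes of the set required in place of UMIs, shares of cells were 35.9% for S and 8.62% for G2/M in EC-like, 40.1% for S in epithelial-like, 28.1% for S and 1.22% for G2/M in stromal-like, and 16.5% for S in immune-like cells. Thinned to 2000 UMIs, shares of cells were 15.03% for S and 7.07% for G2/M in EC-like, 7.81% for S in epithelial-like, 6.54% for S and 1.10% for G2/M in stromal-like, and 15.7% for S and 4.30% for G2/M in immune-like cells.

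Leaving out 1 mouse at a time gave 3 to 8 S genes called higher in EC-like, 5 to 20 G2/M genes called higher in EC-like, 1 to 4 S genes called lower in epithelial-like, 0 to 9 G2/M genes called lower in epithelial-like, 12 to 16 S genes called higher in immune-like, 12 to 15 G2/M genes called higher in immune-like, 14 to 17 S genes called lower in stromal-like, 18 to 20 G2/M genes called lower in stromal-like, 15 to 20 G2/M genes called higher in Aplnr-type, 11 to 12 G2/M genes called lower in AT1-like, 5 to 9 G2/M genes called higher in AT2-like, 6 to 12 S genes called higher in T cell-like, 11 to 14 S genes called higher in NK cell-like, and 8 to 17 G2/M genes called higher in dendritic cell-like cells. Summed CPM then ranged from 471 to 498 (S, EC-like), 559 to 817 (G2/M, EC-like), 588 to 625 (D-type cyclin, EC-like), 245 to 322 (S, epithelial-like), 193 to 314 (G2/M, epithelial-like), 336 to 355 (D-type cyclin, epithelial-like), 208 to 233 (S, stromal-like), 153 to 190.1 (G2/M, stromal-like), 479 to 491 (D-type cyclin, stromal-like), 554 to 604 (S, immune-like), 498 to 572 (G2/M, immune-like), and 348 to 383 (D-type cyclin, immune-like). Shares of cells with at least 5 UMIs ranged from 21.7 to 22.7% (S, EC-like), 7.13 to 7.82% (G2/M, EC-like), 19.8 to 22.9% (S, epithelial-like), 3.92 to 5.54% (G2/M, epithelial-like), 11.3 to 13.3% (S, stromal-like), 0.789 to 0.892% (G2/M, stromal-like), 6.87 to 8.05% (S, immune-like), and 3.26 to 4.05% (G2/M, immune-like).

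With the mouse as a replicate block, which pairs the cell types of the same animal, 17 G2/M and 8 S genes were called higher in EC-like cells. Beside the calls given above with their blocked values, the block changed no other call of a named gene and it moved 1 count of calls by over 1.5 times, that of S genes called lower in interstitial macrophage or monocyte-like cells, from 2 to 1.

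Among cell types, library totals in place of TMM moved the share of higher calls among all calls from 44.5 to 76.9% in AT1-like, 60.7 to 49.4% in AT2-like, 52.4 to 32.7% in club-like, 57.9 to 68.8% in myofibroblast-like, 49 to 59.3% in pericyte-like, 67.9 to 56.1% in Col14a1-type, 66.4 to 81.4% in T cell-like, 67.6 to 78.2% in NK cell-like, 67.7 to 33.7% in neutrophil-like, 73 to 89.6% in interstitial macrophage or monocyte-like, 59.7 to 81.6% in basophil or mast-like, and 38.2 to 68.2% in the comparison of B cell types, and the median log2 fold change of all genes by 0.36 in AT1-like, -0.10 in AT2-like, -0.27 in club-like, 0.14 in pericyte-like, -0.12 in Fcer2a B cell-like, 0.22 in T cell-like, 0.15 in NK cell-like, -0.62 in neutrophil-like, 0.25 in interstitial macrophage or monocyte-like, 0.26 in basophil or mast-like, and 0.10 in the comparison of B cell types. DESeq2 moved the share from 57.5 to 67.7% in venous EC-like, 69.4 to 54.7% in Aplnr-type, 60.7 to 48.5% in AT2-like, 57.9 to 47.3% in myofibroblast-like, 75.3 to 50.4% in Vpreb3 B cell-like, 77.5 to 51.8% in Fcer2a B cell-like, 79.7 to 68.2% in dendritic cell-like, 57.7 to 67.9% in alveolar macrophage-like, 73 to 83.6% in interstitial macrophage or monocyte-like, and 59.7 to 85.2% in basophil or mast-like, and the median by -0.12 in AT2-like, 0.14 in club-like, 0.14 in pericyte-like, -0.32 in Vpreb3 B cell-like, -0.34 in Fcer2a B cell-like, -0.19 in dendritic cell-like, 0.32 in alveolar macrophage-like, 0.25 in interstitial macrophage or monocyte-like, and 0.66 in basophil or mast-like.

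All values are from 1 condition and 3 mice, so they give no effect of a treatment. The p-values rest on the spread of the sums of 3 animals, estimated in 1 fit over all classes or all types. Except with the mouse as a block, sums of the same mouse were treated as independent. A share of G2/M-positive cells depends on depth, and cells under 1000 UMIs could not enter the thinned shares. Cell types were named from markers, and the name of 1 EC sub-cluster decided the Aplnr-type result. Several dividing groups were small (25 lymphatic EC-like, 48 club-like, and 71 alveolar macrophage-like cells), and types with fewer than 10 cells in a mouse were tested without that mouse or not at all. The use of strand in counting was not given in the sources used here.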

Other observations

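Some of the other unnamed clusters held G2/M-positive cells. A cluster of 156 cells with cardiac muscle genes, at a median of 775.5 UMIs, had 5 G2/M-positive cells. A cluster of 68 cells led by Il1rl1, Arg1, and Gata3, at a median of 6722.5 UMIs, had 6, with a median of 14088.5 UMIs in the positive cells. Clusters of 51 and 31 cells, at medians of 544 and 711 UMIs, had 0.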
